A study of Mus musculus with 4 samples.

Results

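The genes described here are 10 glutathione S-transferases of the mouse, namely Gsta1, Gsta2, Gsta3 and Gsta4 of the alpha class, Gstm1 and Gstm2 of the mu class, Gstp1 of the pi class, Gstt1 and Gstt2 of the theta class and Gstk1 of the kappa class. They were chosen by name from the gene tables of 4 kidney libraries, among 22662 genes that could be joined across all 4. Of the 10 members, 9 had a value in every library, and all 9 entered the test. Gstm1 had no entry of its own in 1 control library.

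Glutathione S-transferases join the tripeptide glutathione to electrophilic compounds such as drug metabolites and products of lipid peroxidation. In the mercapturate pathway the conjugates are then trimmed by peptidases of the brush border and acetylated, and the products leave in the urine. The kidney is a main site of this pathway, and in the kidney of adult humans and rodents alpha-class enzymes are known as proteins of the proximal tubule, the segment that also holds most of the trimming enzymes. In humans the pi-class enzyme is used as a marker of distal segments.

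RNA was sequenced from whole mouse kidneys at E18.5, near the end of gestation, in a study of what the loss of Hnf4a from the nephron lineage does to the developing kidney. The mutant libraries (n = 2) came from Hnf4a c/c ; Six2GFPcre embryos, which carry the conditional allele on both chromosomes. The control libraries (n = 2) came from Hnf4a c/+ ; Six2GFPcre embryos. All 4 therefore carried the Six2GFPcre transgene and at least 1 conditional allele, on a background labelled as mixed. Six2GFPcre is a Cre recombinase driven in nephron progenitors, so the tubule and podocyte cells they form inherit the recombined allele. This applies to the controls as well, for their 1 conditional allele, so the comparison is not with wholly intact Hnf4a. Stroma, vessels and the collecting duct do not arise from these progenitors and keep Hnf4a as they were. Nothing in the labels says whether a library held 1 embryo or a pool, or that the libraries came from separate litters. P-values here measure only the spread between these libraries.

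Levels are FPKM, sequenced fragments divided by transcript length and by library size, so that genes can be compared with each other per length. The number of mapped fragments behind them is unknown. Between 13552 and 13646 named genes reached 1 FPKM in a library. Hnf4a, which encodes the nuclear receptor, was at 87.1 and 78.5 FPKM in the mutant libraries and at 89.3 and 84.6 FPKM in the control libraries. That value covers the whole gene and does not check the genotype. Proximal tubule markers separated the groups: all 15 listed were lower in both mutant libraries, with summed FPKM of 326 and 344 in the mutant and 857 and 675 in the control libraries. Of all genes tested, 17.1% lay wholly lower in the mutant. All 15 markers had an unadjusted limma p under 0.05, against 4.57% of all genes tested that were lower at that level. None passed after adjustment, and the list was chosen with earlier results of these data known. Y-linked transcripts were found in replicate 1 of either group and Xist in replicate 2, so values are also given within a replicate number where they bear on a result.

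The glutathione S-transferases did not differ in one direction. Gsta1 and Gsta2 had the lowest mutant levels relative to control, Gstt1, Gstt2 and Gstk1 were lower by less, Gsta4 and Gstm2 differed little, and Gstp1 and Gsta3 were on average higher. None of the 9 tested members passed the adjusted threshold of 0.05 in limma on log2(FPKM + 1), a test across 13287 genes that called 0.158% of them, 0.113% lower and 0.0452% higher. At an unadjusted p under 0.05, 3 members were lower in the mutant (Gsta1, Gsta2 and Gstt1) and none was higher, where 4.57% of all genes tested were lower and 2.67% higher, 7.24% in all. The mutant libraries lay wholly below the control libraries in 5 members and wholly above in 1, against 17.1% and 22.7% of all genes tested, 39.8% in all. The difference was below 0 in 5 of the 9, as it was in 44.7% of all genes tested. The median difference of the 9 members was -0.20 on the log2 scale, and that of all genes tested was 0.02. In whole kidneys, fewer cells of a type and less RNA per cell cannot be told apart, and this holds for every difference given here.

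**Figure D1:**
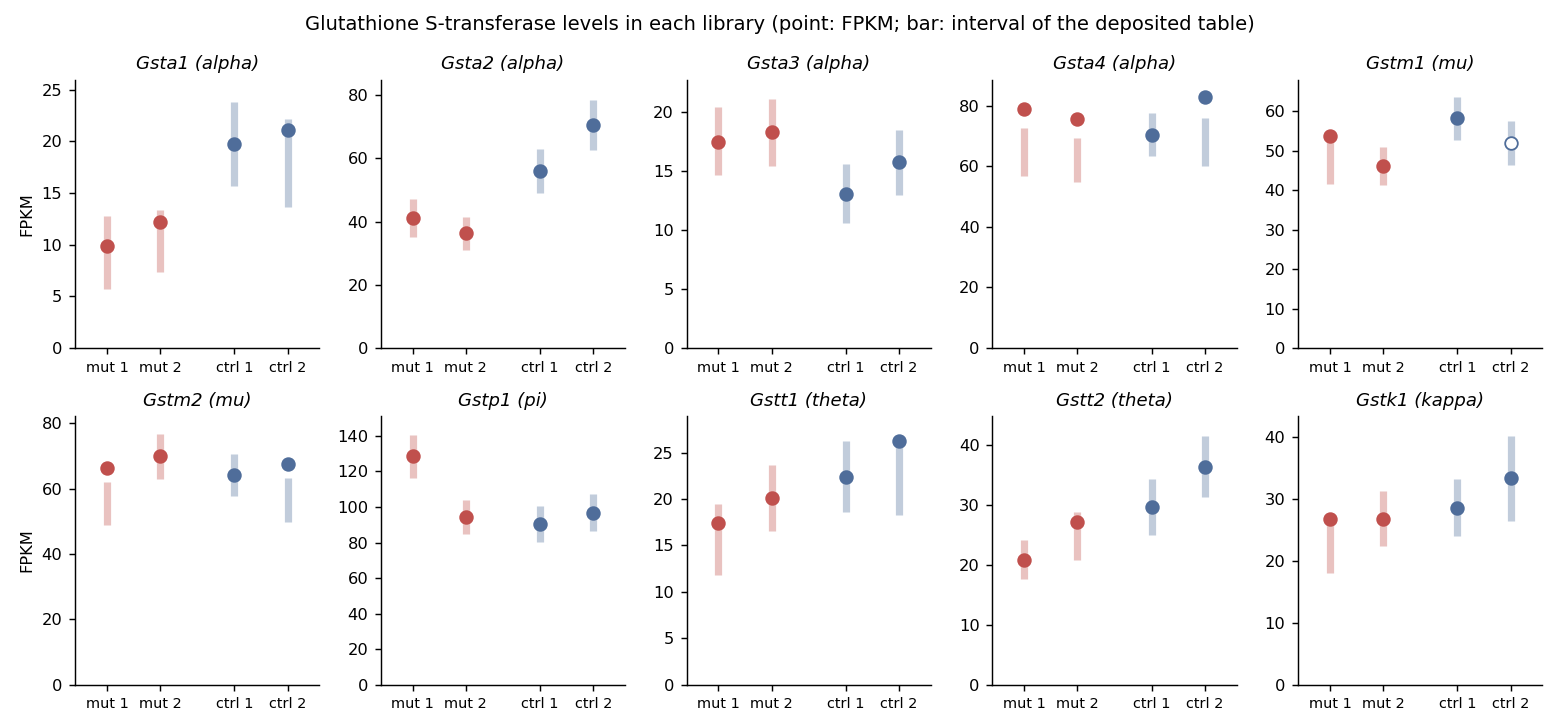
FPKM of the 10 members in mutant replicates 1 and 2 (red) and control replicates 1 and 2 (blue), with the interval of the deposited table as a bar and each axis starting at 0. Gsta1 and Gsta2 are lower in both mutant libraries than in either control library, Gsta3 is higher in both, and the open point for Gstm1 is the joint Gstm1 and Gstm3 entry of control replicate 2.

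Within the alpha class, Gsta1 and Gsta2 were lower in the mutant, Gsta3 was higher, and Gsta4 had overlapping groups by FPKM. Gsta1 (mm9 chromosome 9, 78078476 to 78090490), an alpha-class enzyme that also reduces organic hydroperoxides, had 9.89 and 12.2 FPKM in the mutant libraries, against 19.8 and 21.1 FPKM in the control libraries. Both mutant values lay well below both control values, at 54.0% of the control mean. The log2 difference of Gsta1 was -0.84 (SE 0.14), with a limma p of 0.00279 and an adjusted p of 0.203. Within replicate 1 the mutant level was 50.1% of control, and within replicate 2 it was 57.7%.

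Gsta2 (mm9 chromosome 9, 78178827 to 78194952), its near-identical neighbour on the same chromosome, had 41.2 and 36.3 FPKM in the mutant libraries and 56.0 and 70.5 FPKM in the control libraries. The groups did not overlap, and the mutant mean was 61.2% of the control mean. For Gsta2 the log2 difference was -0.69 (SE 0.14), with a limma p of 0.00668 and an adjusted p of 0.322. The control libraries were farther apart for Gsta2 than for Gsta1, and the mutant level was 73.5% of control within replicate 1 and 51.4% within replicate 2. Leaving out 1 library at a time, the log2 difference ranged from -0.98 to -0.70 for Gsta1 and from -0.85 to -0.52 for Gsta2, always lower in the mutant.

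The Gsta1 and Gsta2 values are not independent measurements, because the pair share most of their coding sequence. In the annotated transcripts of GENCODE (GRCm38), 653 of 669 aligned coding bases were identical, 97.61%, and the longest stretch without a difference was 196 bases. The stretch of 120 coding bases with the most differences is shown, with the differing bases in capitals. It runs from coding base 373 to 492 of each gene, 5′ to 3′.
Gsta1: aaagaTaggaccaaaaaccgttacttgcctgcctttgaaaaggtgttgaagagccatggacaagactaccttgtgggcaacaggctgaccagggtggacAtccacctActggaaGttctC
Gsta2: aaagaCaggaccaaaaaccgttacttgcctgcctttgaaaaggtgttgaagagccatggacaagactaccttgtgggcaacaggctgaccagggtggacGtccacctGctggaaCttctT
Over these bases the genes differed at 5 positions. Within this stretch, a read that covers none of the capitals cannot be placed with one gene rather than the other.

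A further pair of gene models lies between them on chromosome 9, and they were looked up after the values of Gsta1 and Gsta2 had been seen. Gm3776 shared 99.7% of coding bases with Gsta1, and Gm10639 shared 98.5% with Gsta2. Gm3776 (mm9 78104936 to 78116973) was at 8.71 FPKM in mutant replicate 1, against 13.7 and 14.3 FPKM in the control libraries. Gm10639 (mm9 78137735 to 78153332) was at 36.9 FPKM in mutant replicate 1, against 53.8 and 67.1 FPKM in the control libraries. In mutant replicate 2 the authors' assembly joined these gene models into 1 entry at 52.1 FPKM. How reads were shared out among the 4 genes is not stated in the labels or tables, so their sum is the safer value. Summed over all 4, the level was 96.7 and 101 FPKM in the mutant libraries and 143 and 173 FPKM in the control libraries, 62.4% of control. Gsta1 with Gsta2 alone summed to 51.1 and 48.4 FPKM in the mutant and to 75.8 and 91.6 FPKM in the control libraries, 59.5%. The lower mutant level is therefore seen in the sum, which depends little on how reads were divided within the group. The ratio of Gsta2 to Gsta1, which depends on it more, was 4.17 and 2.98 in the mutant libraries and 2.84 and 3.34 in the control libraries, and the groups overlapped.

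Because Gsta1 and Gsta2 were both lower in the mutant, their promoters were set side by side. The 250 bases before each start, from RefSeq on GRCm38.p6, aligned with 184 identical bases in 251 columns, 73.3%. Capitals mark bases that differ, or have no partner, within the stretch where the windows overlap in the alignment, and both are written in the direction of the gene. The first 5 bases of Gsta1 and the last 5 of Gsta2 lie beyond that stretch and are in lower case, uncompared.
Gsta1, chr9:78230419-78230668, plus strand: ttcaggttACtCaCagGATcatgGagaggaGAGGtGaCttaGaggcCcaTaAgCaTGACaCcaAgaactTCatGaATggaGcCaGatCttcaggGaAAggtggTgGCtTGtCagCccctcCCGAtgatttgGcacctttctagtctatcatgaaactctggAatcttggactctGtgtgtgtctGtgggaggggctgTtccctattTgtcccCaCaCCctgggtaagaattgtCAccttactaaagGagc
Gsta2, chr9:78347146-78347395, minus strand: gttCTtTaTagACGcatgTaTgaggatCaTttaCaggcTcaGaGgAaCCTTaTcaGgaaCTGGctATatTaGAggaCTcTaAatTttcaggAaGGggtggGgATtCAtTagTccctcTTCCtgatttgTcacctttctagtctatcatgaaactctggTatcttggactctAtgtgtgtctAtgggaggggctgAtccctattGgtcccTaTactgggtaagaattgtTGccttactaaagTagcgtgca
The part nearer the start is the more alike. Neither window held CAAAGTCCA, a motif of HNF4 proteins, on either strand, a motif found in 0.384% of 32851 mouse promoter windows of the same length. Of the 10 members, 8 had a promoter in the RefSeq table, with 9 windows in all, and none of the 9 held it. The HNF4 direct repeat, AGGTCA written 2 times with 1 base between, was in none of the 9, against 0.0335% of all windows. The HNF1 palindrome, GTTAAT and ATTAAC with 1 base between, was likewise in none, against 0.00913% of all windows. Its left part alone, GTTAAT, was in 1 window, that of Gsta3, against 6.43%. The antioxidant response motif TGACNNNGC, bound by Nrf2, was in the Gsta3 window as TGACATTGC, against 10.2% of all windows. Its form TGAGNNNGC was in the Gstt1 window once and in the Gstp1 window at 2 places, against 14.4% of all windows. These are matches of letters in short windows on both strands and say nothing about binding.

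Gsta3 (mm9 chromosome 1, 21230666 to 21255656), an alpha-class enzyme known in mouse liver for conjugating the activated form of aflatoxin, was higher in the mutant, at 17.5 and 18.3 FPKM, against 13.1 and 15.7 FPKM in the control libraries. It was the 1 tested member with both mutant values above both control values, though the gap between the nearest libraries was small. The log2 difference of Gsta3 was 0.30 (SE 0.13), with a limma adjusted p of 0.749, and it ranged from 0.18 without control replicate 1 to 0.42 without control replicate 2. Gsta3 shares 73.4% of coding bases with Gsta1, with no shared run longer than 38 bases.

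Gsta4 (mm9 chromosome 9, 78039773 to 78057156), which encodes the enzyme that conjugates hydroxynonenal and other lipid peroxidation aldehydes, had 78.8 and 75.6 FPKM in the mutant libraries and 70.5 and 82.9 FPKM in the control libraries. The mutant values lay between the control values. In log2 terms Gsta4 differed by 0.01 (SE 0.10), with a limma adjusted p of 0.978. Gsta4 adjoins Gsta1 on chromosome 9 and shares 65.5% of its coding bases. In the deposited tables its FPKM lay above the upper end of its own interval in 3 libraries, and by the midpoint of the interval its level was 64.7 and 62.1 in the mutant and 70.5 and 68.0 in the control libraries. By the midpoint the groups no longer overlapped and the log2 difference was -0.13 (SE 0.07), so the direction for Gsta4 is not settled. It also turned with median-ratio scaling and without control replicate 1 or mutant replicate 1.

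Both theta-class genes, which lie close together on chromosome 10, were lower in the mutant libraries. Gstt1 (mm9 chromosome 10, 75246558 to 75261329), which conjugates small halogenated compounds, had 17.4 and 20.1 FPKM in the mutant libraries, against 22.4 and 26.2 FPKM in the control libraries. The groups did not overlap, and the mutant level was 77.8% of control within replicate 1 and 76.8% within replicate 2. The log2 difference of Gstt1 was -0.36 (SE 0.13), with a limma p of 0.0491 and an adjusted p of 0.685.

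Gstt2 (mm9 chromosome 10, 75294590 to 75297626), a theta-class enzyme with activity toward sulfate esters and hydroperoxides, had 20.9 and 27.1 FPKM in the mutant libraries and 29.7 and 36.4 FPKM in the control libraries. The groups did not overlap, and within the replicate numbers the mutant level was 70.2% and 74.5% of control. For Gstt2 the log2 difference was -0.45 (SE 0.17), with a limma p of 0.0551 and an adjusted p of 0.710. In both theta genes replicate 2 was above replicate 1 in each group, so the spread within a group was wide relative to the difference. Without control replicate 2 the difference of Gstt1 was -0.25, and without mutant replicate 1 that of Gstt2 was -0.27. Gstt1 and Gstt2 share 59.5% of coding bases and no run longer than 17 bases, so their values are separate measurements in a way those of Gsta1 and Gsta2 are not.

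Gstk1 (mm9 chromosome 6, 42195934 to 42200440), the kappa-class enzyme of mitochondria and peroxisomes, had 26.8 and 26.7 FPKM in the mutant libraries and 28.5 and 33.3 FPKM in the control libraries. The mutant values were nearly the same and lay just under the lower control value. In log2 terms Gstk1 differed by -0.20 (SE 0.11), with a limma adjusted p of 0.764. It ranged from -0.30 without control replicate 1 to -0.09 without control replicate 2.

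In the mu class, both measured members had overlapping groups by FPKM. Gstm2 (mm9 chromosome 3, 107784620 to 107789354), a mu-class enzyme whose human counterpart conjugates aminochrome, had 66.2 and 69.9 FPKM in the mutant libraries and 64.2 and 67.4 FPKM in the control libraries. The groups overlapped, and the log2 difference of Gstm2 was 0.05 (SE 0.07), with a limma adjusted p of 0.866. Gstm1 (mm9 chromosome 3, 107815168 to 107820891), a major hepatic mu-class enzyme, had 53.9 and 46.2 FPKM in the mutant libraries and 58.3 FPKM in control replicate 1. In control replicate 2 it was part of a joint entry with Gstm3 that spans Gstm2 (mm9 107766614 to 107820891), at 51.9 FPKM. Taking that entry as Gstm1, a choice made after seeing the data, gave a log2 difference of -0.14 (SE 0.11), with a limma p of 0.282 and overlapping groups. The overlap rests on mutant replicate 1, whose FPKM lay above its own interval and whose midpoint was 47.3, below both control values. Gstm3 itself, where it had its own entry, was at 2.26 and 1.48 FPKM in the mutant and 2.11 FPKM in the control library, so it could add little to the joint value.

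Gstp1 (mm9 chromosome 19, 4035409 to 4037967 in mutant replicate 1), the pi-class enzyme, which also binds and restrains the kinase JNK, was the member at the highest level. It had 128 and 94.5 FPKM in the mutant libraries and 90.4 and 96.8 FPKM in the control libraries. Mutant replicate 1 stood above the other libraries, and mutant replicate 2 lay between the controls. In log2 terms Gstp1 differed by 0.23 (SE 0.16), with a limma adjusted p of 0.764, and it was 0.02 without mutant replicate 1 and 0.45 without mutant replicate 2. The higher mean therefore rests on mutant replicate 1.

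Gstp2, a neighbour of Gstp1, was likewise highest in mutant replicate 1, with 54.0 and 38.7 FPKM in the mutant libraries and 38.7 and 41.5 FPKM in the control libraries. By the midpoint of its interval, Gstp2 was at 42.1 and 30.6 in the mutant and 38.7 and 32.5 in the control libraries. Mutant replicate 1 was still highest, the other libraries came in another order, and the log2 difference of Gstp2 was 0.02 in place of 0.19. The coding sequences of this pair are identical at 618 of 630 bases, 98.1%, with a shared run of 300 bases, so reads could be divided between them in more than one way. The first 120 coding bases are shown, which hold 6 of the differences, in capitals.
Gstp1: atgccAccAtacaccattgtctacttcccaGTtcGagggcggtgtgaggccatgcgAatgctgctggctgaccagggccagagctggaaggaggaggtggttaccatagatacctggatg
Gstp2: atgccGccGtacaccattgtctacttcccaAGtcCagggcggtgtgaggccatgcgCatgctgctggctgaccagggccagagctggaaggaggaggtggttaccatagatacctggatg
Summed over both genes, the level was 182 and 133 FPKM in the mutant libraries and 129 and 138 FPKM in the control libraries. The sum, too, was highest in mutant replicate 1 by FPKM. The summed markers of the distal tubule were also highest in mutant replicate 1. Calb1, a calcium-binding protein of the distal tubule, was at 117 and 67.1 FPKM in the mutant and 48.9 and 59.5 FPKM in the control libraries. The whole list of 6 loop and distal genes summed to 386 and 294 FPKM in the mutant and 273 and 268 FPKM in the control libraries. Its part in the Gstp1 and Gstp2 values was not tested.

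Liver, which is rich in these enzymes, was checked through its markers, whose sum was highest in mutant replicate 2. Alb, the albumin gene, was at 1.11 and 21.1 FPKM in the mutant libraries and 0.295 and 1.09 FPKM in the control libraries. The 6 liver genes listed, none of them at 0, summed to 34.4 and 93.1 FPKM in the mutant and 42.4 and 48.3 FPKM in the control libraries. Ttr, another of them, did not follow this, at 5.51 and 9.75 FPKM in the mutant and 14.7 and 10.9 FPKM in the control libraries. Without mutant replicate 2, the log2 differences were -0.98 for Gsta1, -0.60 for Gsta2, 0.27 for Gsta3, -0.46 for Gstt1 and -0.63 for Gstt2. The part of the liver markers in these values was not tested. The adrenal cortex genes listed summed to 1.71 and 1.94 FPKM in the mutant and 1.85 and 2.47 FPKM in the control libraries.

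Summed by class, the alpha, theta and kappa levels had lower means in the mutant. Pi and mu, each 1 gene here, were at 119% and 103% of control, and the pi mean rests on mutant replicate 1. The alpha sum over Gsta1 to Gsta4 was 147 and 142 FPKM in the mutant libraries and 159 and 190 FPKM in the control libraries, 82.9% of control. The theta sum was 38.3 and 47.3 FPKM in the mutant and 52.1 and 62.7 FPKM in the control libraries, 74.5%. The sum over all 9 members was 407 and 381 FPKM in the mutant and 395 and 450 FPKM in the control libraries, and the groups overlapped. In every library but control replicate 1, some of the FPKM in it lay above their midpoints. The share of each member in that sum was not tested between the groups. Gstp1 made up 31.6% and 24.8% of it in the mutant libraries and 22.9% and 21.5% in the control libraries. Gsta1 and Gsta2 made up less of it in the mutant. Gsta2 held 10.1% and 9.53% in the mutant libraries and 14.2% and 15.7% in the control libraries, and Gsta1 2.43% and 3.20% against 5.01% and 4.68%.

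Genes whose pattern over the 4 libraries was nearest to that of Gsta1, the member with the largest difference, were found by Euclidean distance on centred log2(FPKM + 1) values. They were Proz (distance 0.03), Pla1a (0.06), Defb19 (0.08), Amacr (0.12) and Cml2 (0.12). Proz was at 0.560 and 0.913 FPKM in the mutant libraries and 1.92 and 2.13 FPKM in the control libraries, 36.3% of control. Cml2, also low, was at 37.2% of control, and Gsta1 at 54.0%. Adding 1 before the log understates changes of such low genes, so the nearness of Proz and Cml2 rests partly on it. Amacr, a racemase of branched-chain fatty acid breakdown, was at 10.4 and 13.7 FPKM in the mutant libraries and 21.2 and 21.0 FPKM in the control libraries. Pla1a, a phospholipase, was at 13.0 and 16.6 FPKM in the mutant and 25.4 and 28.5 FPKM in the control libraries. The order is a description over 4 libraries.

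Other members of the glutathione transferase families were listed beside the 10. Of 19 genes, 16 could be tested and none passed the adjusted threshold in limma, while 1 was lower and 1 higher at an unadjusted p under 0.05, where 4.57% of all genes tested were lower and 2.67% higher. Counts of 1 in 16 are no result about these genes. The lower one was Gstz1, the zeta-class enzyme that isomerises maleylacetoacetate in tyrosine breakdown, with 34.4 and 35.7 FPKM in the mutant libraries and 45.7 and 48.3 FPKM in the control libraries. Its values were tight within each group and did not overlap. For Gstz1 the log2 difference was -0.41 (SE 0.08), with a limma p of 0.00435 and an adjusted p of 0.255. The higher one was Alox5ap, a membrane protein that presents arachidonate for leukotriene synthesis, with 12.0 and 9.65 FPKM in the mutant and 7.34 and 8.06 FPKM in the control libraries. The log2 difference of Alox5ap was 0.44 (SE 0.16), with a limma adjusted p of 0.671.

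The other mu-class genes had log2 differences from -0.35 for Gstm6, which was under 2 FPKM and differed by -0.07 without mutant replicate 2, to 0.01 for Gstm7. Gstm5 was the most abundant of them, at 76.4 and 73.2 FPKM in the mutant libraries and 73.8 and 79.4 FPKM in the control libraries, and the groups overlapped. Gsto1, an omega-class enzyme with thioltransferase activity, was at 47.4 and 50.1 FPKM in the mutant and 45.4 and 54.1 FPKM in the control libraries, also overlapping. By the midpoint Gsto1 was at 40.7 and 42.9 in the mutant and 45.4 and 46.1 in the control libraries, without overlap, a log2 difference of -0.13 in place of -0.02. Mgst1, the most abundant microsomal transferase, was at 72.8 and 97.4 FPKM in the mutant libraries and 60.8 and 78.8 FPKM in the control libraries. The groups overlapped, and within replicate numbers 1 and 2 the mutant level of Mgst1 was 120% and 124% of control. Its log2 difference was 0.28 by FPKM, 0.42 by the midpoint and 0.07 without mutant replicate 2, the library with most Alb, whose part was not tested. Mgst3, another microsomal transferase with peroxidase activity, was at 56.1 and 57.6 FPKM in the mutant and 53.3 and 81.8 FPKM in the control libraries. By FPKM the control libraries lay on either side of the mutant values, a log2 difference of -0.21. By the midpoint Mgst3 was at 41.2 and 41.5 in the mutant and 53.3 and 81.9 in the control libraries, wholly lower in the mutant, a difference of -0.66 with a limma p of 0.0509. The remaining genes ranged in log2 difference from -0.16 for Hpgds, the prostaglandin D synthase of mast cells and macrophages, to 0.59 for Mgst2, which was at 1.07 and 2.16 FPKM in the mutant and 0.712 and 0.701 FPKM in the control libraries. Gstt4 was listed at 0 in all libraries. Gstt3 was at 28.2 and 31.1 FPKM in the mutant and 28.4 FPKM in control replicate 1, and was joined with Ddt in control replicate 2.

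**Figure D2:**
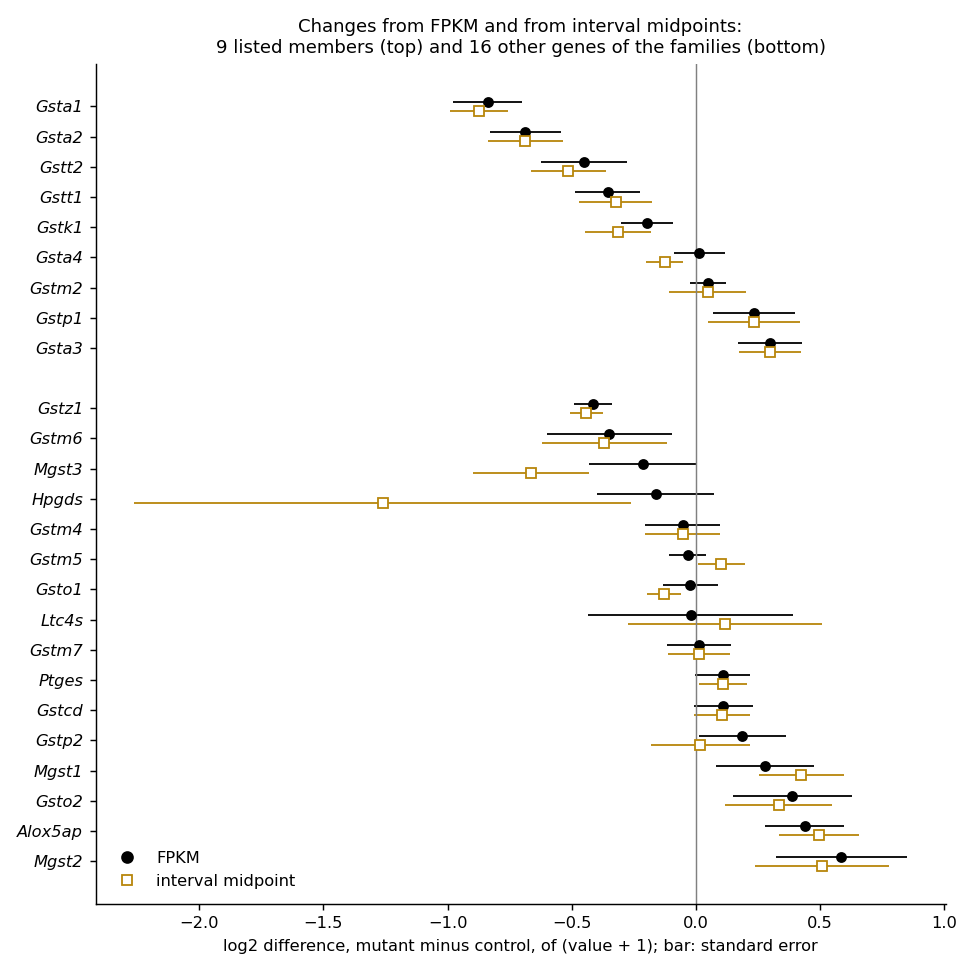
Log2 difference, mutant minus control, of 9 members and 16 further genes, computed from FPKM (black points) and from the midpoint of the deposited interval (open squares), with standard errors as bars. Gsta1 and Gsta2 lie lowest among the members by either value, whereas Gsta4 lies at 0.01 by FPKM and at -0.13 by the midpoint.

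The FPKM of the members did not sit alike in their deposited intervals, and among the members this went with the library and the kind of entry. In control replicate 1 all 10 member values lay at the midpoint. In the other libraries, members whose entry was named by the gene symbol had an FPKM at least 5% above the midpoint in 13 of 15 cases, up to 1.219 times, and above the upper end in 6. Entries numbered by the library's own assembly did so in 0 of 14 cases. Some other genes of the families broke this split, and its cause was not tested. The joint entry of Ddt and Gstt3 in control replicate 2, numbered by the assembly, was at 1.245 times its midpoint. Gstm5, named by its symbol, was at 0.9988 and 0.9996 times its midpoint in the mutant libraries. Over all entries of at least 5 FPKM, 9.15% and 10.9% in the mutant libraries and 0% and 9.45% in the control libraries lay above their interval. Members differ in which libraries this touches. For Gstk1, mutant replicate 1 alone lay above the midpoint, and the midpoint gave a difference of -0.31 in place of -0.20. For Gsta1, 3 libraries did, and the midpoint gave -0.87 in place of -0.84. Gsta2, Gsta3 and Gstp1 lay at the midpoint throughout.

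**Figure D3:**
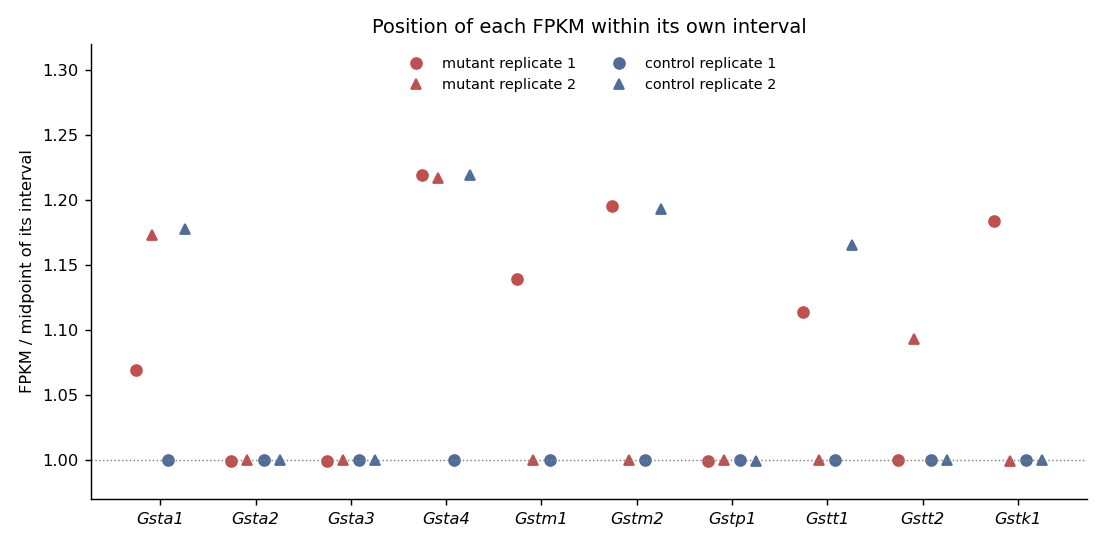
FPKM divided by the midpoint of its own interval for each member, by library, mutant in red and control in blue, with the dotted line at 1. Control replicate 1 lies at 1 for every member, and Gsta4 reaches 1.219 in other libraries.

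The genes that make, recycle and use glutathione outside the transferases were counted from a list of 18, of which 17 were tested. None passed the adjusted threshold in limma, and 3 were lower and none higher at an unadjusted p under 0.05, where 4.57% of all genes tested were lower and 2.67% higher, with a median log2 difference of -0.08. Gss, glutathione synthetase, which adds the last amino acid, was at 35.5 and 38.5 FPKM in the mutant libraries and 59.9 and 54.9 FPKM in the control libraries. That is 64.4% of control, with a log2 difference of -0.62 (SE 0.09) and a limma adjusted p of 0.156. Gclm, the modifier subunit of the rate-limiting ligase, was at 38.2 and 39.5 FPKM in the mutant and 52.4 and 48.4 FPKM in the control libraries. Gclc, the catalytic subunit of that ligase, was at 38.8 and 42.5 FPKM in the mutant and 36.5 and 37.8 FPKM in the control libraries. By FPKM the ligase subunits lay on opposite sides of control, with a limma adjusted p of 0.346 for Gclm and 0.764 for Gclc. Gpx3, the plasma glutathione peroxidase made by the proximal tubule, was at 137 and 118 FPKM in the mutant and 178 and 155 FPKM in the control libraries. The peroxidases Gpx1, Gpx4 and Gpx8 had overlapping groups, with log2 differences of -0.08, -0.01 and 0.13.

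In the mercapturate pathway, which takes over after the transferases, most genes were lower in the mutant, as were the proximal tubule markers. Of 19 listed genes, 18 were tested and none passed the adjusted threshold in limma, while 8 were lower and none higher at an unadjusted p under 0.05, where 4.57% of all genes tested were lower and 2.67% higher. The mutant libraries lay wholly below the control libraries in 12 and wholly above in 2, against 17.1% and 22.7% of all genes tested, and the median log2 difference was -0.38, against -0.20 for the transferases. The difference between these lists was not tested, nor was the part of the proximal tubule markers in it. The peptidase step came first with Ggt1, the brush border gamma-glutamyltransferase, at 89.8 and 79.7 FPKM in the mutant libraries and 132 and 123 FPKM in the control libraries. Its log2 difference was -0.58 (SE 0.09), with a limma adjusted p of 0.194. Anpep, aminopeptidase N, was at 62.2 and 57.0 FPKM in the mutant and 94.0 and 61.5 FPKM in the control libraries, and the groups overlapped. Lap3, a cytosolic leucine aminopeptidase, differed by -0.03.

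Some genes of acetylation, deacetylation and transport differed more, and others did not. Cml1, listed by RefSeq as a synonym of Nat8f1, an N-acetyltransferase family member, was at 22.4 and 26.3 FPKM in the mutant libraries and 83.5 and 68.5 FPKM in the control libraries. Its log2 difference was -1.60 (SE 0.14), with a limma adjusted p of 0.0707. Acy3, the aminoacylase that removes the acetyl group from mercapturates, was at 36.0 and 35.8 FPKM in the mutant and 65.0 and 77.6 FPKM in the control libraries, with a limma adjusted p of 0.0978. Abcc2, an apical pump that exports glutathione conjugates, was at 1.87 and 1.82 FPKM in the mutant libraries and 6.75 and 8.43 FPKM in the control libraries, 24.3% of control, with a limma adjusted p of 0.0964. Among the other conjugate pumps, Abcc1 differed by 0.12 and Abcc4 by -0.38, and Acy1, another aminoacylase, by -0.38. Slc22a6, a basolateral carrier that takes up organic anions from the blood, was at 12.6 and 10.5 FPKM in the mutant and 47.3 and 27.2 FPKM in the control libraries. Both mutant libraries were below both control libraries for Cml1, Acy3, Abcc2 and Slc22a6. Cml1, Abcc2, Slc22a6, Gss, Gclm, Gclc, Abcc1, Abcc4 and Acy1 were picked for this account after their values were seen.

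Targets of Nrf2, the factor that switches on many of the transferases under oxidative stress, were counted outside the family. Of 17 tested, none passed the adjusted threshold in limma, 2 were lower (Me1 and Osgin1) and none higher at an unadjusted p under 0.05, where 4.57% of all genes tested were lower and 2.67% higher, and the median log2 difference was -0.04. The range ran from -0.76 for Osgin1, at 2.49 and 2.48 FPKM in the mutant and 5.10 and 4.72 FPKM in the control libraries, to 0.77 for Cbr3, at 11.5 and 5.76 FPKM in the mutant and 4.80 and 4.04 FPKM in the control libraries. Me1, the malic enzyme, differed by -0.47 and Hmox1, heme oxygenase, by -0.40. These 4 were also picked after their values were seen. Prdx1, a peroxiredoxin, was at 117 and 115 FPKM in the mutant libraries and 112 and 121 FPKM in the control libraries. The ferritin chains Ftl1 and Fth1 differed by -0.16 and -0.12, and by -0.07 and -0.04 without mutant replicate 2. By the midpoint Ftl1 differed by -0.46. Taldo1, an enzyme of the pentose phosphate pathway, differed by -0.04 by FPKM.

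**Figure D4:**
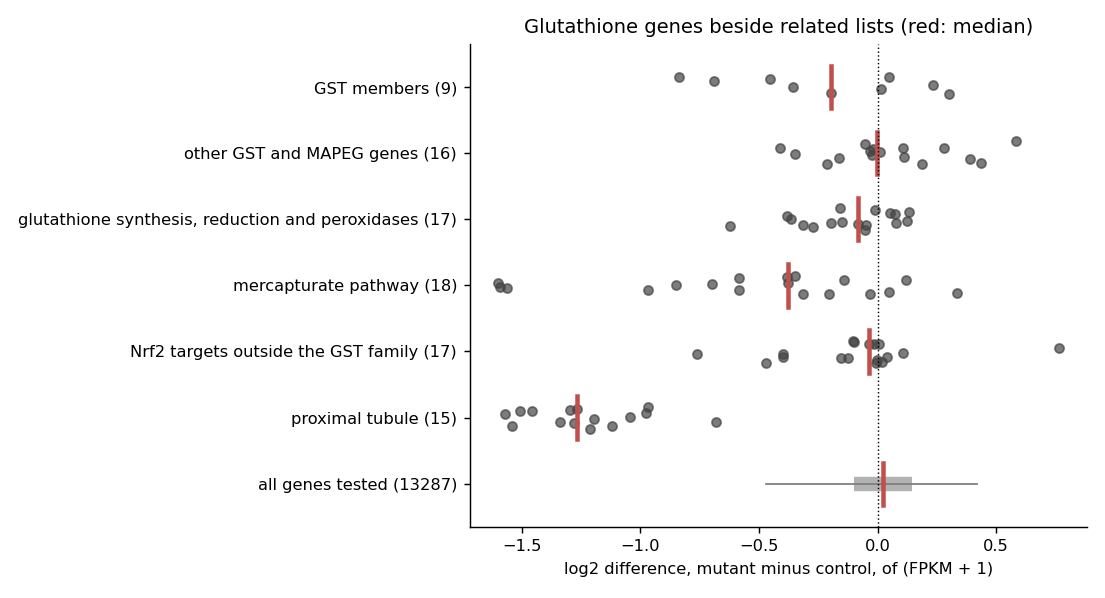
Log2 difference, mutant minus control, of each tested gene (points) in the transferases and related lists, with the list median in red and, for all 13287 genes, the range from the 25th to the 75th percentile as a bar and from the 5th to the 95th as a line. The 9 transferases have a median of -0.20, between the Nrf2 targets at -0.04 and the mercapturate genes at -0.38, and the 15 proximal tubule markers a median of -1.27.

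The transferases were thus set beside the proximal tubule markers, which had a median log2 difference of -1.27. Those markers were listed with earlier results of these data known. Gsta1, at -0.84, and Gsta2, at -0.69, were the members nearest to that median. The other tested members ranged from -0.45 for Gstt2 to 0.30 for Gsta3. Marker levels of the proximal tubule moved with the groups in the same direction as Gsta1 and Gsta2, and their part in these values was not tested.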

How the data were processed

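Poly(A) RNA from whole embryonic kidneys was made into libraries with a DNA kit (ThruPLEX). Per the labels' protocols nothing is known of strand. The FPKM values and their intervals in the deposited tables, 1 table a library, are the authors' own. They worked on mm9 with Cufflinks 2.1.1, after TopHat2 2.0.11 with Bowtie 1.0.0, and SAMtools 0.1.19 is named too (submitters' processing notes). Annotation and settings: not given in the sources used here. Loci were assembled separately in each library, per the identifiers in the files, so a gene's bounds can differ. Tables hold no counts, so depth is unknown.

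FPKM was summed over entries sharing a symbol. All 4 tables shared 22761 of 23852 names, from which 99 with an entry not marked OK were dropped. The test used log2(FPKM + 1), which understates changes of low genes, for genes reaching 1 FPKM in at least 2 libraries. It was limma 3.58.1 (R 4.3.3; lmFit and eBayes, trend on, group as its term), adjusted by Benjamini-Hochberg over all genes tested, threshold 0.05. With 2 libraries a group, an exact two-sided permutation test of 1 gene cannot go below 0.333. The fit was tested on simulated data with independent noise in each library and planted changes larger than that of any member. Anything that same-numbered libraries may share was not part of that simulation.

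Members and lists were chosen with earlier results of these data known. Named by rule were all members, Hnf4a, the further transferases, the 4 most abundant tested genes of each list without a called gene, and the 5 patterns nearest to the member with the largest difference. Alternatives changed pseudocount, filter, scaling, variance model, repeated symbols, status, threshold, replicate number and each library. Sequences are from GENCODE and RefSeq on GRCm38 and carry no mm9 coordinates. Some genes are counted in their lists and not reported here by name.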

Additional observations from a re-analysis of the deposited data

Results flagged for a closer look

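An unnamed locus inside Gstt2 (mm9 chromosome 10, 75295558 to 75295875) was listed at 18.9 FPKM in mutant replicate 2 and had no counterpart in the other 3 libraries. It stands out as signal in an entry that the comparison does not use. Gstt2 itself was at 27.1 FPKM in that library, and 20.9 FPKM in mutant replicate 1. Whether its reads belong to Gstt2 was not tested.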

How the results depend on the processing

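No transferase among the 10 passed the adjusted threshold under any of the alternatives, and 2 to 4 passed an unadjusted p under 0.05. Gsta1 and Gsta2 were lower in the mutant in all of them, and Gsta1 had a lowest limma adjusted p of 0.180. Over all genes, 21 passed; 10 did with no filter, 33 with a filter of at least 5 FPKM, 11 with no mean-variance trend, 6 with the replicate number as a block and 79 at an adjusted threshold of 0.1. Leaving out each library in turn gave 0 to 21: limma called 0 without control replicate 1 (721 lower and 293 higher at an unadjusted p under 0.05) and 0 without control replicate 2 (1103 and 1192). With the interval midpoint, chosen after seeing the data, 0 passed (574 and 331). At 0.1, 3 pathway genes passed (Cml1, Acy3 and Abcc2), against 0 at 0.05. No label says what same-numbered libraries share. Y-linked transcripts and Xist go with the number in both groups, and deviations correlated at 0.146 over 13287 genes. The replicate block put 4 members under an unadjusted limma p of 0.05, adding Gstt2 (0.00843), and gave Mgst1 0.0268.

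Directions turned in 27 of 564 alternatives for 38 single genes, and the cause was not tested. With quantile normalization Gpx4 was 0.0079 and Prdx1 0.022. With median-ratio scaling Gsta4 was -0.0075 and Gstm7 -0.0076. With the midpoint Gsta4 was -0.13, Gstm5 0.10 and Ltc4s 0.12. Leaving out 1 library gave log2 ranges of -0.10 to 0.13 for Gsta4, -0.0862 to 0.11 for Gstm7, -0.0735 to 0.34 for Gpx8, -0.22 to 0.11 for Gstm4, -0.0863 to 0.019 for Gstm5, -0.15 to 0.10 for Gsto1, -0.41 to 0.0862 for Hpgds, -0.52 to 0.0906 for Mgst3, -0.50 to 0.46 for Ltc4s, -0.0948 to 0.0729 for Gpx4, -0.0643 to 0.0473 for Prdx1, -0.0478 to 0.42 for Gstp2, -0.14 to 0.0025 for Hnf4a and -0.0772 to 0.0031 for Taldo1. The unknown depth limits the precision of low values.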
